A study of Mus musculus with 8 samples.

Results

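DNA replication and G1/S genes are the genes whose products license, start and carry out the copying of the genome, together with the regulators that admit a cell to S phase. A total of 47 such genes were taken from the array by gene symbol, and all 47 had probes. A gene was kept when some group had a probe that stood well above background in both of its mice, which left 46 of the 47, among 25830 genes tested of 37074 gene names on the array. The gene that was not kept was Ccne2, which codes for cyclin E2: its probe was not well above background on any of the 8 arrays. Each of the 46 was read from its brightest kept probe over all arrays, and that probe was well above background on all 8.

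The arrays are of whole lungs from male bone marrow chimeras of 22 weeks, all given diphtheria toxin (DT) and killed 72 hours later. In LysM-DTR mice the regulatory sequences of lysozyme M drive a receptor for the toxin, which kills cells that carry it. Cells of the lung that make lysozyme M include alveolar type 2 cells besides neutrophils, monocytes and macrophages, so the receptor is not limited to a single cell type. In LL chimeras LysM-DTR marrow was placed in LysM-DTR recipients, and in WL chimeras wild-type marrow was placed in LysM-DTR recipients. LW chimeras had LysM-DTR marrow in wild-type recipients, and WW chimeras were wild type in marrow and recipient. Each group had 2 mice with 1 array each. There is no array of a mouse without toxin, and the share of host blood cells that each recipient kept is not given in the sources used here.

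Replication is prepared in G1, when the origin recognition complex, Cdc6 and Cdt1 load rings of the Mcm2 to Mcm7 proteins onto DNA. Kinases, Cdc45 and the GINS complex then turn these rings into active helicases, and polymerases follow with a sliding clamp, a clamp loader and enzymes that supply nucleotides. Many of these genes are switched on together by E2F factors as cells pass from G1 to S phase. In the resting adult lung few cells divide, and after injury epithelial, endothelial, stromal and immune cells can all enter the cycle.

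Levels are log2 of the processed intensity minus the 75th percentile of the array, so that 0 is the 75th percentile and 1 unit is a 2-fold step. Between arrays the 75th percentile varied from 208.6 to 324.4 in intensity, with 66.3 to 72.3% of spots well above background. The same slide and scan carried all 8 arrays. The LL and WL arrays lay in one column and the LW and WW arrays in the other, so the recipient genotype and the column cannot be told apart. Tests are from limma on all 8 arrays with 4 group means, adjusted by Benjamini-Hochberg over all 25830 genes, and a gene passed at an adjusted p under 0.05. With 2 mice per group, each p-value sets a difference against a spread estimated from the mice of all 4 groups and, in part, from all genes. The distance between the WL mice thus counts in LL against WW too.

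In LL against WW, where the receptor was in marrow and recipient or in neither, 4 of the 46 genes rose and none fell. These were Hells (1.96 on the log2 scale), Uhrf1 (1.59), Rrm2 (1.49) and Mcm10 (1.35). Over all genes 1.21% were called higher and 1.92% lower in this comparison. The median difference of the 46 genes was 0.66, with 38 above 0, whereas the median over all genes was 0.03. An unadjusted p under 0.05 was reached by 32 of the 46 genes and by 6402 of the 25830. In 38 of the 46 both LL arrays lay above both WW arrays, as in 37% of all genes. The count of 4 rested on the arrays in the fit: it was 0 without any single LL, LW or WW array and 30 (29 higher and 1, Rfc5, lower) without WL replicate 1 or without WL replicate 2, fits in which 17.3% of all genes were called higher. It was 2, Hells and Uhrf1, with no filter on dim probes (0.324% of all genes higher). In whole lung, fewer cells of a type and less RNA per cell cannot be told apart.

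Averaged over both marrow genotypes, LysM-DTR recipients were compared with wild-type recipients, 4 mice against 4. Of the 46 genes 7 were higher and none lower: Uhrf1 (1.65), Rrm2 (1.48), Hells (1.37), Pole (1.20), Tk1 (1.20), Mcm10 (1.19) and Mcm5 (1.16). The background was 0.627% of all genes higher and 0.639% lower. The median was 0.68 with 42 above 0, against -0.01 over all genes. In 33 of the 46 genes all 4 arrays of LysM-DTR recipients lay above all 4 of wild-type recipients, compared with 8.72% of all genes, and in 1, Rfc5, all 4 lay below, compared with 8.85%. The count of 7 was 34 (33 higher) without WL replicate 1, where 24.6% of all genes were called higher, 27 (26 higher) without WL replicate 2, where 6.86% were, and 0 without any single LL, LW or WW array. With no filter on dim probes it was 1, Uhrf1 (0.119% of all genes higher). The count of 33 whose arrays did not overlap ran from 33 to 35 when any 1 array was left out. Leaving out an array can only keep or raise this count, so the range is no check of it.

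**Figure D1:**
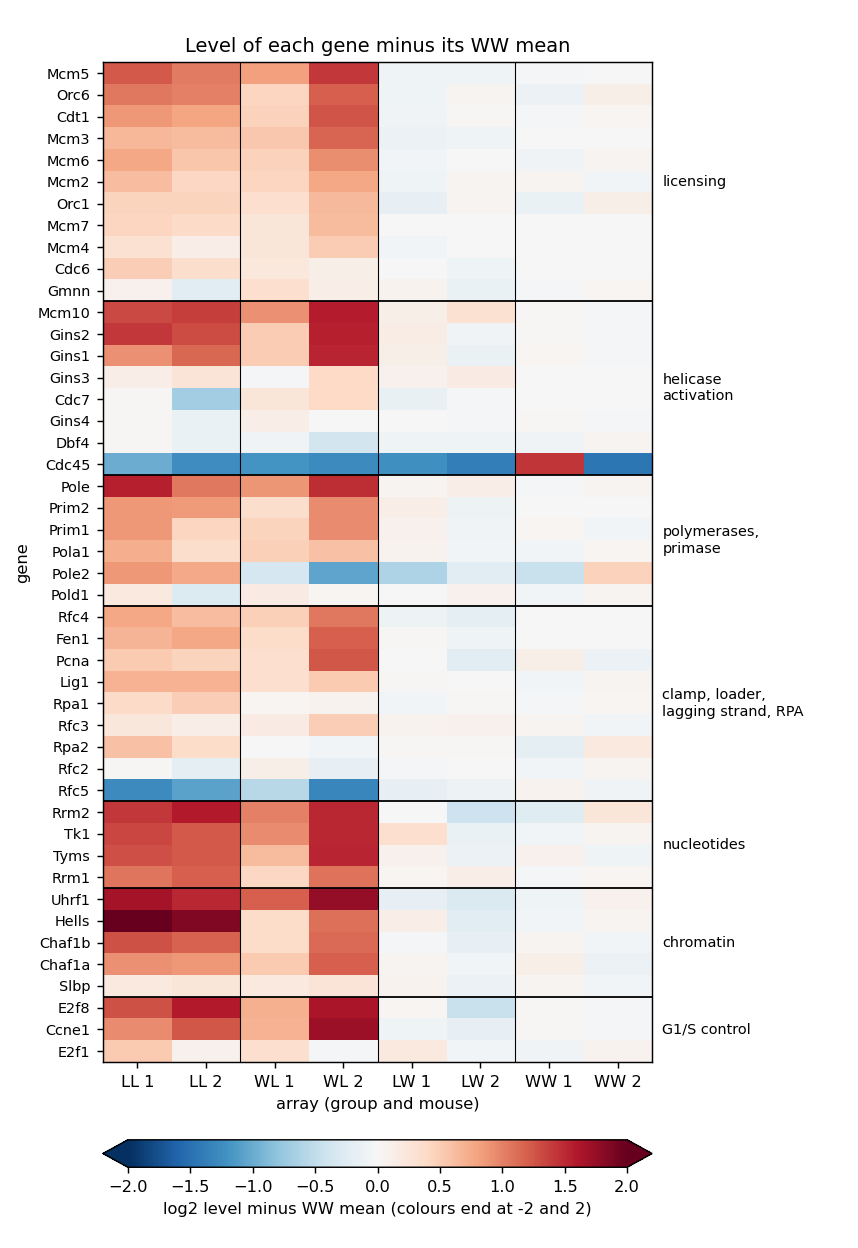
Log2 level of each of the 46 genes (rows, by role) on each array (columns) minus the mean of the gene's WW arrays; red is above and blue below that mean, and colours end at -2 and 2. The median over the 46 genes was 0.72 and 0.59 on the LL arrays, 0.36 and 0.94 on the WL arrays and 0 and -0.07 on the LW arrays. The Cdc45 row is set by WW replicate 1 alone, and the Rfc5 row runs against the rest.

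The map of levels against the WW mean shows the order of the arrays. WL replicate 2 stood highest at a median of 0.94, followed by LL at 0.72 and 0.59, and WL replicate 1 lay lower at 0.36. WL replicate 1 was nevertheless above both WW and both LW arrays in 39 of the 46 genes. WL replicate 2 lay above WL replicate 1 in 35. The WL mice differed by a median of 0.53 per gene (0.44 over all genes), whereas the mice of the other pairs differed by 0.16 in LL, 0.11 in LW and 0.10 in WW.

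Lung markers were present on every array, and markers of several cell types differed between the groups. All 9 monocyte and macrophage genes listed fell in LL against WW, and their summed signal, in units of the array's 75th percentile, was 39.1 to 42 in LL, 224 to 475 in WL, 496 to 557 in LW and 578 to 592 in WW. They did not follow the replication genes into WL: against WW 6 of the 9 were above 0 in WL, with a median of 0.76, although the sum was lower. None of 8 alveolar type 2 genes passed and all 8 were below 0, with sums of 664 to 783 in LL, 583 to 1460 in WL, 1420 to 1600 in LW and 1560 to 1670 in WW. Fibroblast genes summed to 162 to 178 in LL, 132 to 161 in WL, 119 on both LW arrays and 93 to 113 in WW, with 5 of 7 above 0 and none called. Neutrophil precursor genes summed to 20.9 to 35.3 in LL, 12.5 to 31 in WL, 10.1 to 12 in LW and 8.66 to 8.72 in WW. None of 6 passed and Ctsg was not above background. The sum hides that 4 of the 6 were below 0 in WL against WW, with a median of -0.43. Airway genes summed to 949 to 965 in LL, 661 to 1240 in WL, 1280 to 1320 in LW and 1300 to 1440 in WW, and T cell genes to 11.6 to 12.6, 12.6 to 22.3, 20.8 to 23.2 and 20.7 to 24.6 in the same order, with Trac not above background. Alveolar macrophage genes, of which 4 of 10 fell in LL against WW, summed to 20 to 55.4 in LL, 125 to 130 in WL, 81.2 to 118 in LW and 101 to 118 in WW. B cell genes summed to 3.99 to 4.19, 5.66 to 26.2, 23.1 to 39.3 and 21.3 to 26.6 in that order, alveolar type 1 genes to 648 to 653, 360 to 392, 401 to 406 and 459 to 471, and endothelial genes to 192 to 237, 139 to 164, 142 to 144 and 147 to 153, with none called. The part of these cells in the levels of the replication genes was not tested.

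The promoters of the genes were read for the short words that E2F factors and 2 other cell cycle elements are named for. RefSeq start sites on GRCm38.p6 matched 38 of the 47 genes, with windows from 250 bases before to 50 bases after a start. At least 1 of the E2F-type words TTTCCCGC, TTTGGCGC, TTTCGCGC and TTTGCCGC, on either strand, was found for 15 of the 38 genes (39.5%) and for 704 of 27025 genes in the table (2.6%). The CHR-type word TTTGAA was found for 18.4% of the 38 genes and 20.2% of all, and the CCAAT box for 57.9% and 41.1%. A word is a match of letters and not a measured site. These shares follow from the choice of genes and do not depend on the array levels. Pold1 and Gins3 held an E2F-type word, with recipient differences of 0.01 and 0.13. Tyms and Rrm1 held none, with recipient differences of 1.18 and 0.89. The part of E2F factors in the differences was not tested. Of the 7 genes that were higher in LysM-DTR recipients, Hells, Uhrf1 and Mcm5 held an E2F-type word, Rrm2, Tk1 and Mcm10 held none of the 4 words in their windows, and Pole had no window.

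Shown are 80-base stretches before the start of those 3 genes and of Mcm6, which held 3 words, Orc1 and Cdc6, all 5′ to 3′ on the strand of the gene, with E2F-type words in capitals. In Mcm5 and Mcm6 a pair of words on opposite strands overlap, so that a single run of capitals holds both. The stretches lie at chr19:38930892-38930971 (Hells, plus strand), chr17:56304092-56304171 (Uhrf1, plus), chr8:75109322-75109401 (Mcm5, plus), chr1:128359741-128359820 (Mcm6, minus), chr4:108579374-108579453 (Orc1, plus) and chr11:98907977-98908056 (Cdc6, plus) of GRCm38.p6.
Hells: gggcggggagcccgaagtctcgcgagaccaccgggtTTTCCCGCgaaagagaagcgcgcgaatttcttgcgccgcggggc
Uhrf1: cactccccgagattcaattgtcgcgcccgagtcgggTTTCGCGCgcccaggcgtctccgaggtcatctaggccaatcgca
Mcm5: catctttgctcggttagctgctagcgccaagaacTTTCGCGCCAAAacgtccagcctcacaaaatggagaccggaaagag
Mcm6: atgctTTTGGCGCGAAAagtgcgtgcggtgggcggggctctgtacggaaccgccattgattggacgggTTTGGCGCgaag
Orc1: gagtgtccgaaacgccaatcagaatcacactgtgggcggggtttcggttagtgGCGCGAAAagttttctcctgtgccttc
Cdc6: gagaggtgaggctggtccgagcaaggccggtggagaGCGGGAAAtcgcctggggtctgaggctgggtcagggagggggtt

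Licensing genes prepare origins in G1. Of the 11 measured, Mcm5 passed in the recipient comparison, none passed in LL against WW, and 10 of the 11 had all 4 LysM-DTR recipient arrays above the others. For this role and those below, the shares over all genes were 8.72% with that order and 0.627% called higher by recipient. Mcm5, a subunit of the helicase ring whose probe lies at chr8:77651350-77651410 (mm9), had levels of 1.19 and 1.01 in LL, 0.79 and 1.39 in WL, -0.11 and -0.11 in LW and -0.05 and -0.02 in WW. Its lowest LysM-DTR recipient thus lay far above its highest wild-type recipient. The recipient difference was 1.16 (SE 0.152, adjusted p = 0.0347), a fold of 2.24, and in LL against WW it was 1.13 (SE 0.215, adjusted p = 0.0527).

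Orc6, a subunit of the origin recognition complex, stood at 1.49 and 1.44 in LL, 0.87 and 1.63 in WL, 0.36 and 0.50 in LW and 0.32 and 0.55 in WW. These groups did not overlap either, yet the difference of 1.03 between LL and WW did not pass (SE 0.261, adjusted p = 0.0949). Geminin (Gmnn), which binds Cdt1 and blocks licensing outside G1, was the licensing gene least apart: 1.28 and 0.99 in LL, 1.54 and 1.33 in WL, 1.27 and 1.07 in LW and 1.16 and 1.24 in WW. Its groups overlapped, with a difference of -0.06 between LL and WW (SE 0.17). The other 8 licensing genes, which include the remaining Mcm subunits, the loaders Cdc6 and Cdt1 and the origin subunit Orc1, had recipient differences from 0.31 (Mcm4 and Cdc6) to 0.85 (Cdt1), and none passed.

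Within the helicase ring the subunits differed in size of difference though the proteins work as 1 complex. The recipient difference was 1.16 for Mcm5, 0.80 for Mcm3, 0.69 for Mcm6, 0.57 for Mcm2, 0.43 for Mcm7 and 0.31 for Mcm4. Their standard errors were 0.108 to 0.152, and all 6 had recipient groups that did not overlap. The subunits were not tested against each other. These are differences on the log2 scale for each gene's own probe and say nothing of which subunit is the most abundant.

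In helicase activation 3 of 8 genes had recipient groups that did not overlap. Mcm10, which is needed for the loaded helicase to start unwinding and whose probe lies on chromosome 2, 4911904 to 4911845 (mm9), stood at -0.61 and -0.55 in LL, -1.02 and -0.36 in WL, -1.82 and -1.62 in LW and -1.91 and -1.95 in WW. All LysM-DTR recipients were above all wild-type recipients. It rose by 1.35 in LL against WW (SE 0.234, adjusted p = 0.0418) and by 1.19 over both marrow genotypes (SE 0.165, adjusted p = 0.038). With another background correction (normexp) these values were 0.87 and 0.77, and with the mean of its probes 1.1 and 1.04, none of which passed.

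Gins2 and Gins1 are subunits of the GINS complex that joins the Mcm ring. On its brightest probe Gins2 had 0.28 and 0.18 in LL, -0.63 and 0.42 in WL, -0.98 and -1.20 in LW and -1.10 and -1.17 in WW, a difference of 1.36 between LL and WW (SE 0.33, adjusted p = 0.0865). A dimmer Gins2 probe read -1.64 and -1.94 in LL and -1.88 and -1 in WW, a difference of -0.35. On that probe the recipient difference was 0.36 and the recipient groups overlapped, so the direction between LL and WW depended on the probe. Gins1, like Gins2 on its brightest probe, did not overlap between recipient genotypes, with a recipient difference of 1.03 (SE 0.231, adjusted p = 0.0841). The other 2 subunits of the same complex did overlap: the recipient difference was 0.13 for Gins3 and 0.01 for Gins4. Cdc7, the kinase that fires origins, stood at 0.04; the signs of these 3 turned under another scaling of the arrays. Dbf4, the activating subunit of Cdc7, stood at -0.10 on its brightest probe (-0.60 and -0.76 in LL, -0.69 and -0.99 in WL, -0.71 and -0.70 in LW and -0.69 and -0.56 in WW).

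Cdc45, which joins the Mcm ring and GINS in the active helicase, is described because 1 array stood apart, as seen from its values. Its brightest probe read -0.55 in WW replicate 1, against -3.42 in WW replicate 2 and -3.37 to -2.97 on the other 6 arrays. The difference between LL and WW was -1.11 (SE 0.828, adjusted p = 0.417) and 0.32 without WW replicate 1. A dimmer Cdc45 probe read -3.53 and -4.16 in LL, -4.19 and -3.40 in WL, -5.48 and -6.29 in LW and -5.27 and -4.38 in WW, with no overlap between recipient genotypes. That probe was well above background on neither LW array and on 1 of 2 WW arrays, and LysM-DTR recipients stood 1.84-fold above wild-type recipients on it with both LW arrays raised to the floor. The floor is the lowest signal among the probes well above background on that array. The WW arrays kept their own signal, including the array not well above background. The dimmer probe was kept only through the LysM-DTR recipients, where it is high, so that its order is no independent support.

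**Figure D2:**
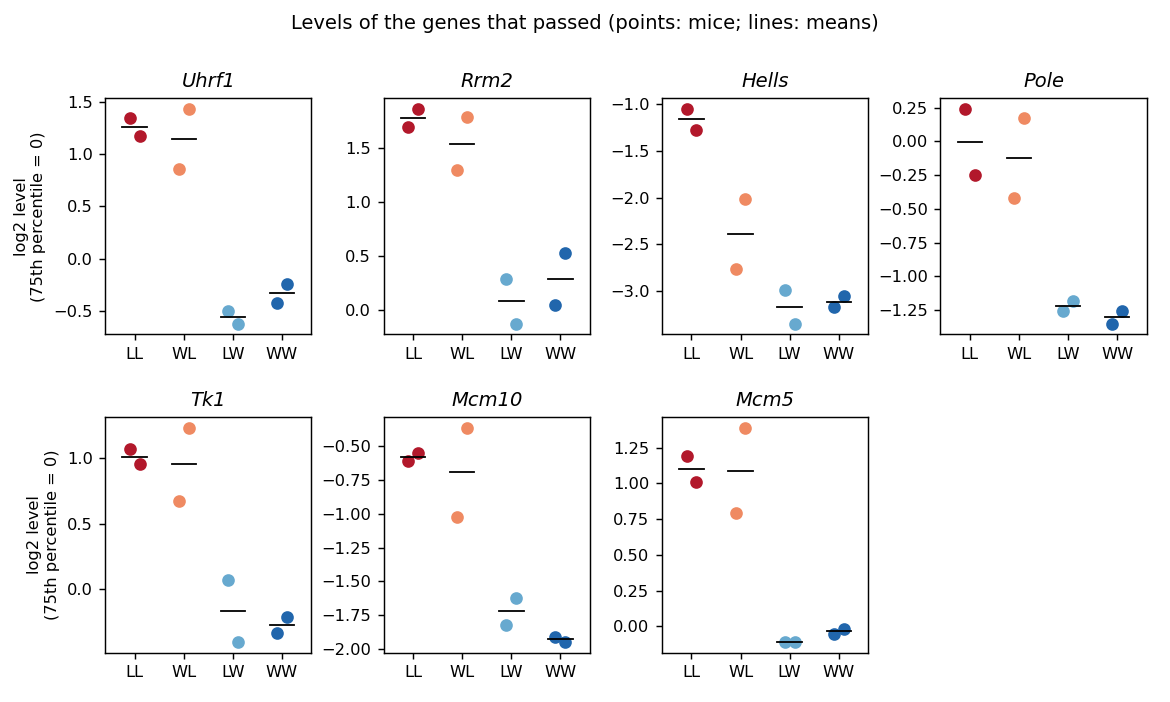
Log2 level (0 is the array's 75th percentile; each panel has its own axis) of the 7 genes that were higher in LysM-DTR recipients, by group, with a point for each mouse and a line at the group mean. In every panel the 4 LL and WL mice lie above the 4 LW and WW mice, and the WL mice lie further apart than the LL mice.

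Among polymerases and primase, Pole passed in the recipient comparison, and 4 of 6 genes had non-overlapping recipient groups. Pole, the catalytic subunit of the leading-strand polymerase epsilon (probe at chr5:110766375-110766434, mm9), stood at 0.24 and -0.25 in LL, -0.42 and 0.17 in WL, -1.26 and -1.18 in LW and -1.35 and -1.26 in WW. Each LysM-DTR recipient was above each wild-type recipient. The recipient difference was 1.20 (SE 0.178, adjusted p = 0.0436), a fold of 2.29, and the difference between LL and WW was 1.30 (SE 0.252, adjusted p = 0.0544). By recipient Pole did not pass with normexp (0.84) or with the mean of its probes (1.21, adjusted p = 0.0696). The mean takes in a dimmer Pole probe that was well above background in no wild-type recipient.

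Prim2, the large primase subunit that helps lay down the RNA primer, had -0.13 and -0.15 in LL, -0.65 and -0.05 in WL, -0.87 and -1.10 in LW and -0.99 and -1.01 in WW. The groups did not overlap by recipient, and its difference of 0.86 between LL and WW did not pass (SE 0.221, adjusted p = 0.0961). The partner Prim1 and the primase-bound polymerase Pola1 had recipient differences of 0.67 and 0.53. Pold1, the catalytic subunit of polymerase delta, stood at 1.49 and 1.03 in LL, 1.46 and 1.34 in WL, 1.29 and 1.38 in LW and 1.24 and 1.36 in WW. Its groups overlapped and its recipient difference was 0.01 (SE 0.134), with a sign that turned under other scalings. Pole2, the second subunit of polymerase epsilon, was set apart after its values were seen: -0.35 and -0.46 in LL, -1.54 and -2.27 in WL, -1.83 and -1.43 in LW and -1.66 and -0.75 in WW on its brightest probe. Both LL mice were above all others on this probe, of a cDNA clone, and the difference of 1.5 between LL and WL did not pass (adjusted p = 0.136). On the probe of the Pole2 RefSeq mRNA the LL mice, at -2.92 and -3.31, were not above the WL mice, at -2.99 and -2.11, and the difference was -0.57 (adjusted p = 0.469), so its direction depended on the probe.

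Clamp, loader, lagging-strand and single-strand binding genes gave no call, and 5 of 9 had LysM-DTR recipients wholly above wild-type recipients. Lig1, the ligase that seals Okazaki fragments, came nearest: 2.39 and 2.40 in LL, 2.03 and 2.22 in WL, 1.73 and 1.70 in LW and 1.64 and 1.76 in WW. It did not overlap by recipient, with a difference of 0.70 between LL and WW (SE 0.138, adjusted p = 0.0573). Pcna, the sliding clamp, had a recipient difference of 0.70 (SE 0.212), the flap nuclease Fen1 0.77 and the loader subunit Rfc4 0.80. Rfc2, another loader subunit, stood at 2.40 and 2.18 in LL, 2.48 and 2.21 in WL, 2.34 and 2.36 in LW and 2.31 and 2.43 in WW, with overlap and a recipient difference of -0.04. The single-strand binding genes Rpa1 and Rpa2, named after their values were seen, stood above every other mouse in both LL mice, at 3.73 and 3.83 for Rpa1 (3.28 to 3.41 elsewhere) and 0.10 and -0.12 for Rpa2 (-0.68 to -0.29 elsewhere). Between LL and WL they differed by 0.38 and 0.49, which did not pass (adjusted p = 0.257 and 0.288).

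Rfc5, a small subunit of the clamp loader, was the gene that ran against the others on its brightest probe. That probe read 1.94 and 2.14 in LL, 2.66 and 1.90 in WL, 3.05 and 3.11 in LW and 3.28 and 3.14 in WW, so that all LysM-DTR recipients were below all wild-type recipients. The recipient difference was -0.98 (SE 0.183, adjusted p = 0.0673). A second probe, the one listed for the RefSeq mRNA, read 2.27 and 2.01 in LL, 1.74 and 2.17 in WL, 1.36 and 1.27 in LW and 1.41 and 1.35 in WW, the opposite order without overlap, with a recipient difference of 0.70 (adjusted p = 0.0708). Another probe, of a cDNA clone, read -0.47 to 0.10 on all arrays with a difference of 0.12. The direction for Rfc5 therefore depended on the probe.

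The Rfc5 probes are of 60 bases, and the first 30 bases of the RefSeq mRNA probe and of the clone probe are printed to show that they are different sequences under 1 gene name. They lie on chromosome 5 (mm9), from 117829213 to 117829154 for the RefSeq mRNA probe and from 117836388 to 117836329 for the clone probe. No capitals are used, since no base among them was singled out.
Rfc5 RefSeq mRNA: ctgggctgtgtttttaccaagtccttcaca
Rfc5 clone: cctaatgtttcgaccttttaatacagtttg

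The 4 enzymes of nucleotide supply all had LysM-DTR recipients wholly above wild-type recipients, with recipient differences from 0.89 to 1.48, and 2 passed. Rrm2, the small subunit of ribonucleotide reductase and the one made mainly in S phase (probe at chr12:25398824-25398883, mm9), stood at 1.69 and 1.86 in LL, 1.29 and 1.79 in WL, 0.28 and -0.13 in LW and 0.04 and 0.52 in WW. No wild-type recipient reached the lowest LysM-DTR recipient. Rrm2 rose by 1.49 in LL against WW (SE 0.265, adjusted p = 0.0445), a fold of 2.82, and by 1.48 by recipient (SE 0.187, adjusted p = 0.0323).

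Tk1, the kinase that salvages thymidine (probe on chromosome 11, 117676904 to 117676845, mm9), stood at 1.07 and 0.95 in LL, 0.67 and 1.23 in WL, 0.07 and -0.40 in LW and -0.33 and -0.21 in WW. Its recipient groups were apart as well, by 1.20 (SE 0.174, adjusted p = 0.0414), and LL and WW by 1.28 (SE 0.247, adjusted p = 0.0539). Tyms, thymidylate synthase, which makes dTMP from dUMP, had 1.54 and 1.47 in LL, 0.89 and 1.78 in WL, 0.34 and 0.13 in LW and 0.34 and 0.16 in WW. It did not overlap but did not pass (1.26 between LL and WW, SE 0.293, adjusted p = 0.0803). Rrm1, the large reductase subunit, had a recipient difference of 0.89 (SE 0.163, adjusted p = 0.0641).

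Chromatin genes, which rebuild nucleosomes and DNA methylation behind the fork, all had LysM-DTR recipients wholly above wild-type recipients (5 of 5), and 2 passed. Uhrf1, which reads half-methylated DNA and brings the maintenance methyltransferase to it (probe at chr17:56462770-56462829, mm9), stood at 1.34 and 1.17 in LL, 0.86 and 1.43 in WL, -0.50 and -0.62 in LW and -0.42 and -0.24 in WW. The gap between the recipient genotypes was wider than any gap within them. Uhrf1 rose by 1.59 in LL against WW (SE 0.219, adjusted p = 0.0236) and by 1.65 by recipient (SE 0.155, adjusted p = 0.0205), a fold of 3.13. With the mean of its probes the values were 1.63 and 1.45 and neither passed (adjusted p = 0.0579 and 0.0512). That mean takes in a dimmer probe that was well above background in no wild-type recipient.

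Hells, a remodelling ATPase also known as Lsh that DNA methylation depends on (probe at chr19:39039914-39039973, mm9), stood at -1.05 and -1.27 in LL, -2.76 and -2.02 in WL, -2.99 and -3.35 in LW and -3.17 and -3.06 in WW. Unlike the other genes that passed, its LL mice were clear of its WL mice. Hells rose by 1.96 in LL against WW (SE 0.27, adjusted p = 0.0236), a fold of 3.88, and by 1.37 by recipient (SE 0.191, adjusted p = 0.038). Between LL and WL it differed by 1.23 (SE 0.27), which did not pass (adjusted p = 0.102). Hells is dim, and with normexp the difference between LL and WW was 0.88, which passed, and that by recipient 0.54, which did not.

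The subunits of chromatin assembly factor Chaf1b and Chaf1a had recipient differences of 1.04 (SE 0.181, adjusted p = 0.0599) and 0.88 (SE 0.167, adjusted p = 0.0702). Slbp, which binds the stem-loop of histone mRNAs, was the chromatin gene least apart in LL against WW. Its brightest probe read -0.41 and -0.36 in LL, -0.41 and -0.34 in WL, -0.53 and -0.72 in LW and -0.54 and -0.66 in WW, which do not overlap by recipient but differ by only 0.23.

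Of the G1/S regulators 3 were measured and none passed. E2f8, an atypical E2F that represses E2F targets later in S phase, stood at -1.03 and -0.71 in LL, -1.59 and -0.66 in WL, -2.26 and -2.74 in LW and -2.27 and -2.33 in WW. Its recipient groups did not overlap, with a difference of 1.40 (SE 0.237, adjusted p = 0.0563). Ccne1, cyclin E1, the partner of Cdk2 at the entry to S phase, had -0.03 and 0.26 in LL, -0.29 and 0.73 in WL, -1.06 and -1.14 in LW and -0.96 and -1 in WW. It did not overlap either, at 1.21 (SE 0.23, adjusted p = 0.07). The activator E2f1 had 0.07 and -0.36 in LL, -0.12 and -0.48 in WL, -0.26 and -0.50 in LW and -0.52 and -0.38 in WW, with overlap and a recipient difference of 0.19 (SE 0.153).

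**Figure D3:**
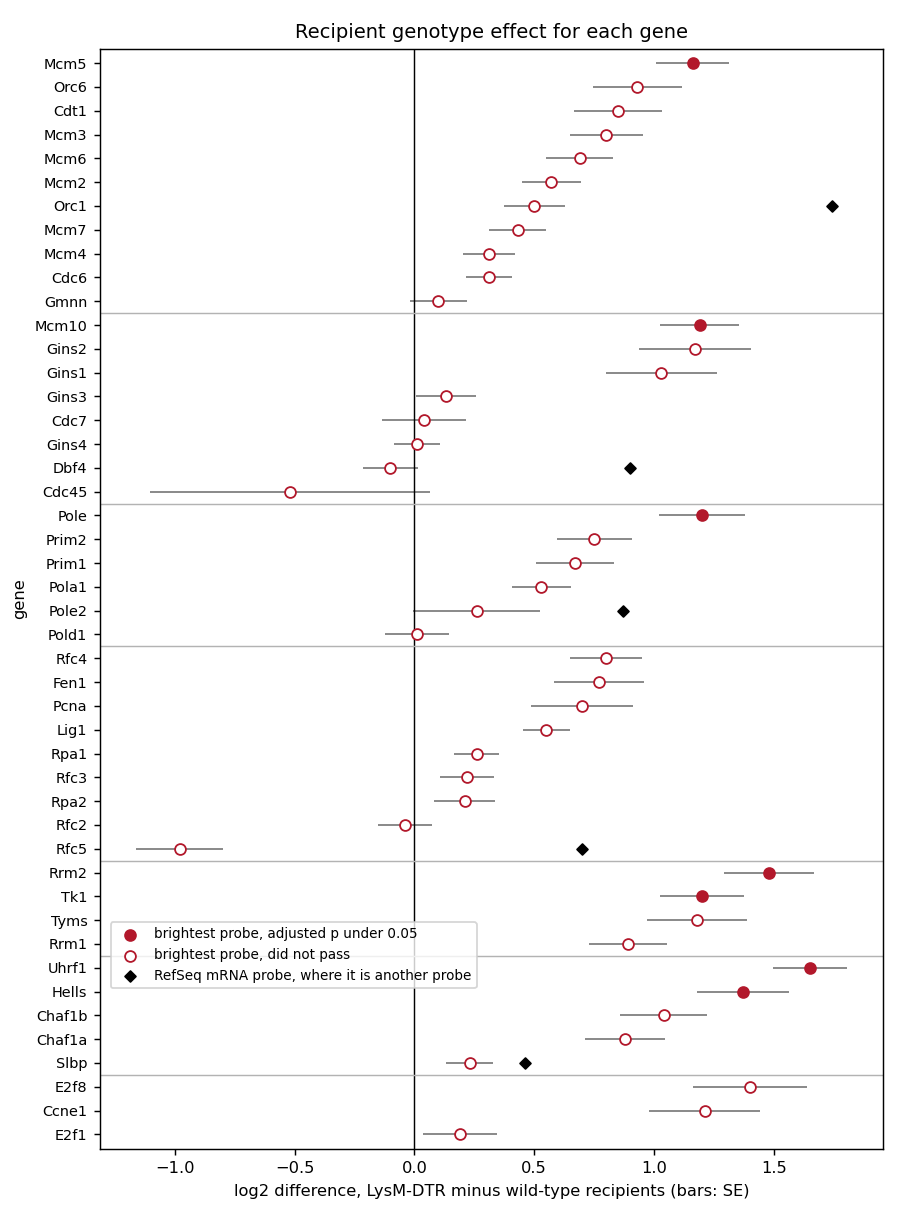
Difference between LysM-DTR and wild-type recipients (log2 scale, bars are SE from limma) for each of the 46 genes in the order of the roles; filled circles passed, open circles did not, and diamonds give the brightest probe listed for a RefSeq mRNA where this is another probe. Most genes lie to the right of 0, and Rfc5 is at -0.98 on its brightest probe and 0.70 on its RefSeq mRNA probe.

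Several genes had more than 1 probe, so the measurements could be set against each other. Of 91 probes for the 47 genes 79 were kept, and 26 genes had more than 1 kept probe. In 22 of the 26 all probes had the same sign by recipient, and Cdc45, Dbf4, Prim2 and Rfc5 had probes of both signs. In LL against WW, Cdc7, Gins2, Gins4 and Gmnn, which are among the 22, had probes of both signs. Among the 22, Cdc7, Gins1, Lig1, Orc1, Pole and Uhrf1 each had a probe kept only through LysM-DTR recipients. Over all 79 probes, 53 (67.1%) read higher on all 4 LysM-DTR recipient arrays than on all 4 others and 1 lower, against 8.78% and 8.63% of 39595 kept probes with a value on all arrays. Of the 65 probes listed for a RefSeq mRNA 46 (70.8%) did so, and of the 14 others 7 (50%). Both counts, 53 and 46, include probes of Cdc45, Gins1, Lig1 and Orc1 kept only through LysM-DTR recipients, where they are high. Those probes are no independent support. The share over all kept probes was taken after the same filter.

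For 5 genes the brightest probe was not listed for a RefSeq mRNA: Orc1, Dbf4, Pole2, Slbp and Rfc5. On the RefSeq mRNA probe the recipient difference was 0.90 for Dbf4, 0.87 for Pole2 and 0.46 for Slbp, against -0.10, 0.26 and 0.23 on the brightest. For Orc1 that probe was well above background on neither LW array and on 1 of 2 WW arrays, and LysM-DTR recipients stood 2.53-fold above wild-type recipients on it with both LW arrays at the floor, whereas the brightest probe differed by 0.50. With these probes, chosen after the values were seen, 35 of 46 genes had non-overlapping recipient groups (8.86% of all genes), and the 7 genes named above passed by recipient (0.658% of all genes higher). Orc1 passed too in that fit, but its probe was kept through the LysM-DTR recipients, where it is high. Its pass is therefore not counted here, and its place among the 35 is no independent support. Prim2 showed the reverse, since its dimmer probe, of an Ensembl transcript, read -1.66 to -1.34 on all arrays with a difference of -0.07.

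**Figure D4:**
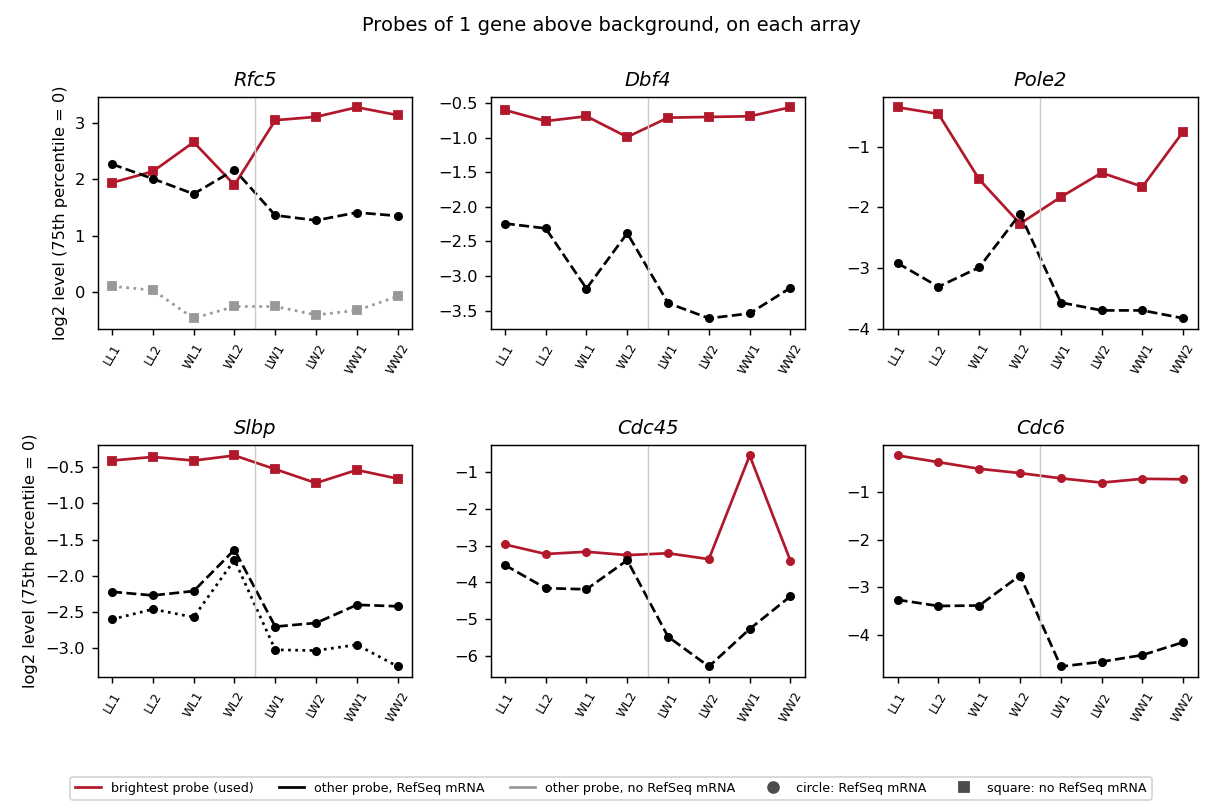
Log2 level on each array of every kept probe of 6 genes whose probes differ in size or sign of difference; red is the brightest probe, circles are probes listed for a RefSeq mRNA and squares are not. The grey line parts LysM-DTR from wild-type recipients. For Rfc5 the brightest probe falls to the left of that line where the RefSeq mRNA probe is high, and for Cdc45 WW replicate 1 stands alone on the brightest probe.

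WL against WW asks for the receptor in the recipient alone. None of the 46 genes passed by limma, and over all genes 0% were called higher and 0.00387% lower. The median was 0.67, 40 genes were above 0 and 31 had an unadjusted p under 0.05, against 2112 of all 25830 genes. In 35 genes both WL arrays were above both WW arrays, compared with 17.5% of all genes. Uhrf1 stood at 1.48 (SE 0.219, adjusted p = 0.264) and Mcm10 at 1.24 (adjusted p = 0.331). With a single WL mouse in the fit, the median of the 46 genes was 0.94 without WL replicate 1 and 0.36 without WL replicate 2. Over all genes these medians were -0.08 and -0.02. The size of the difference thus depended on which WL mouse was kept.

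LW against WW asks for the receptor in the marrow alone. None of the 46 genes passed by limma, and none had an unadjusted p under 0.05, against 569 of all genes, while 0.0465% of all genes were called higher and 0.00774% lower. The median was -0.03 with 32 below 0. Both LW arrays were above both WW arrays in 5 genes and below in 8 (13.8% and 20.1% of all genes). Apart from Cdc45, at -1.31 with WW replicate 1 far above the rest, differences ran from -0.42 (Pole2) to 0.21 (Mcm10), with Uhrf1 at -0.23.

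LL against WL asks what receptor in the marrow adds within LysM-DTR recipients. None of the 46 genes passed by limma, with 0.573% of all genes called higher and 1.15% lower. An unadjusted p under 0.05 was reached by 5 of the 46 genes and by 3757 of all 25830. The median was 0.02, and the LL mean was above the WL mean in 26 genes. Both LL arrays were above both WL arrays in 7 genes and below in 2, against 23.5% and 14.3% of all genes. Without WL replicate 2 the count was 7, of which 6 were higher, with 10.8% of all genes called higher. Without WL replicate 1 it was 1, which was lower, with 5.01% of all genes called higher. The marrow by recipient interaction tests whether the marrow genotype counts differently in LysM-DTR and wild-type recipients. In it 2 genes had an unadjusted p under 0.05, Pole2 (1.92, but -0.70 on its RefSeq mRNA probe) and Hells (1.29). Over all 25830 genes 2360 did so. None of the 46 passed by limma in the interaction, with 0.00387% of all genes called higher and 0.0581% lower. Without WL replicate 2 the count was 2, both higher, with 4.64% of all genes called higher.

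Other replication genes were counted for comparison. Of 45 listed, such as the remaining origin and polymerase subunits, none rose and 1 fell in LL against WW, the nuclease and helicase Dna2, at -1.28 (SE 0.219, adjusted p = 0.0409), with -0.33 and -0.20 in LL against 0.96 and 1.06 in WW. By recipient 3 passed as higher, among them the histone chaperone Asf1b by 1.18 (adjusted p = 0.036) and the cohesin acetyltransferase Esco2, at least 2.55-fold with all wild-type recipients at the floor or, where higher, at their own signal (adjusted p = 0.044). Esco2 was well above background in no wild-type recipient and was kept through the LysM-DTR recipients, where it is high, so that its p is no independent support. In 22 of the 45 the recipient groups did not overlap upwards, compared with 8.72% of all genes, and the median recipient difference was 0.28. Over all genes 0.627% were called higher by recipient, and in LL against WW 1.21% were called higher and 1.92% lower. Cdca7, which works with Hells in chromatin remodelling, fell in LL against WL by 1.02 (SE 0.151, adjusted p = 0.036), with -0.61 on both LL arrays, 0.39 and 0.42 in WL, -0.31 and -0.29 in LW and -0.02 and -0.33 in WW.

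Of 33 other genes of G1 control, Ccna2, cyclin A2, which acts from S phase to mitosis, rose in LL against WW by 1.38 (SE 0.199, adjusted p = 0.0272) and by recipient by 1.39 (adjusted p = 0.0221). It stood at 0.55 and 0.67 in LL, 0.33 and 0.69 in WL, -0.69 and -1.08 in LW and -0.79 and -0.75 in WW. E2f7, the close relative of E2f8, rose by recipient by 1.51 (SE 0.238, adjusted p = 0.0494). None of the 33 passed as lower in either comparison, where 1.92% and 0.639% of all genes did, and the median recipient difference was 0.23. Mitosis genes were called more often: of 25 listed, 20 rose in LL against WW and 21 by recipient, with medians of 1.56 and 1.60 against 0.66 and 0.68 for the replication genes. The smallest p in LL against WW was that of Cdc20, which activates the anaphase-promoting complex, at 1.76 (SE 0.143, adjusted p = 0.00769). Over all genes 1.21% were called higher in LL against WW and 0.627% by recipient. The lists were not tested against each other.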

How the data were processed

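Lungs of 8 mice were measured on 1-colour Agilent arrays, and per the labels Feature Extraction 11.5.1.1 gave the values. Per the file headers the deposited processed intensity is background-subtracted, on a linear scale. The deposited series table holds log2 values that equal log2 of that intensity minus a constant per array; how the authors chose the constant is not given in the sources used here.

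Control spots and non-uniform spots (0 to 4 per array) were left out, and no spot was saturated. Levels are log2 intensity minus the array's 75th percentile. Of 56605 probes, 39603 were kept, each well above background in both mice of some group, and a gene took its brightest such probe. limma 3.58.1 (R 4.3.3) fitted 4 group means on 8 arrays (4 residual and 2.19 prior degrees of freedom), was tested on simulated data, and gave Benjamini-Hochberg p-values over all genes. The number of arrays limits the precision. The members and lists were chosen with earlier results of these data known. In each role the 2 genes with the smallest and the 1 with the largest p in LL against WW, and each gene called, have their value on every array; of other lists, called genes are named with the exception given at the end. Alternatives covered background correction, scaling, filter, probe choice, variance model, replicate block, fitted arrays and leaving out each array; the RefSeq mRNA probe was added after the data were seen. Probe positions (mm9) are those of the array annotation, and promoters are from RefSeq (GRCm38.p6). A gene of the other replication list and a probe sequence are not reported here.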

Additional observations from a re-analysis of the deposited data

How the results depend on the processing

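With 2 mice per group, the number of calls moved with the arrays that share the error. Against 4 genes called in LL against WW, 7 passed with quantile normalization, 2 with no detection filter, 8 with a robust variance trend, 30 with both WL arrays left out, 24 with only the compared arrays, and 0 to 30 when 1 array was left out. Against 7 called by recipient genotype, 1 passed with no detection filter and 0 to 34 when 1 array was left out. In the other comparisons, with none called, leaving out 1 array gave 0 to 31 in WL against WW, 0 to 7 in LL against WL and 0 to 2 in the interaction, and normexp gave 1 in LL against WL. The genes with recipient groups apart upwards numbered 32 to 35 under every alternative run. Among these alternatives, leaving out an array cannot lower the number. Of all genes, LL against WW called 910 with quantile normalization, 875 with a robust variance trend and 8286 with both WL arrays left out. The recipient comparison called 327 of all genes, and 98 with no detection filter. Over all genes the LL against WW count was 808, and it was 400 with no filter, 6245 with only the compared arrays and 4 to 8286 when 1 array was left out.

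Equal replicate numbers did not pair the mice: deviations of same-numbered mice correlated at -0.10 to 0.19. With the replicate number as a block 1 gene passed in LL against WW and 1 by recipient, Uhrf1 in both. Of all genes 447 passed in LL against WW and 131 by recipient.

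Some genes turned sign, most of them near 0 but Rfc5, Cdc45 and, on another probe, Dbf4 by more. With the mean of probes LL against WW became 0.19 for Gins4, 0.19 for Cdc7, 0.51 for Dbf4 and 0.05 for Gmnn, and the recipient difference 0.51 for Cdc45 and 0.40 for Dbf4. With the RefSeq mRNA probe, added after the data were seen, the same values were 0.76 and 0.70 for Rfc5 and 1.08 and 0.90 for Dbf4. Quantile normalization gave Gins3 -0.06 in LL against WW, and by recipient Gins3 -0.09, Gins4 -0.04 and Pold1 -0.03. With the percentile over detected probes the recipient difference was -0.03 for Gins4, -0.04 for Pold1 and -0.01 for Cdc7. When 1 array was left out LL against WW ran from -0.14 to 0.02 for Gins4, -0.18 to 0.03 for Rfc2, -0.27 to 0.19 for Pold1, -0.69 to 0.03 for Cdc7, -0.14 to 0.02 for Dbf4, -0.21 to 0.08 for Gmnn and -2.54 to 0.32 for Cdc45, and the recipient difference from -0.03 to 0.05 for Gins4, -0.11 to 0.13 for Pold1, -0.14 to 0.22 for Cdc7, -0.11 to 0.03 for Rfc2 and -1.23 to 0.20 for Cdc45. The cause of these changes was not tested.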
